A study of Mus musculus with 11 samples.

Results

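Collagen and laminin chains were followed across 11 RNA sequencing libraries of mouse colon cancer organoids. The members were all rows of the deposited gene table named Col, a number, a and a number, or Lama, Lamb or Lamc with a number. The rule found 54 of 23224 rows, of which 43 were collagen and 11 were laminin chains. The row Col4a3bp, which names a lipid transfer protein and no chain, was not a match. All 5 groups carried the AKP genotype. The C57Bl6 group (3 libraries) was organoids re-grown from primary tumours of immunocompetent C57Bl6 recipients, and the RAG2KO group (3 libraries) was organoids re-grown from primary tumours of immunodeficient RAG2KO recipients. Both kinds of tumour started as naive AKP organoids given orthotopically by colonoscopy. The submitters state that each re-grown culture was passaged until cancer cells alone were left. The constitutive and the inducible SOX17OE lines (1 library each, with no replicate) were naive organoids with a lentiviral construct for SOX17, a transcription factor, and doxycycline drives the inducible one. The labels do not tell if this line received doxycycline. The naive group (3 libraries) was the AKP organoids before transplantation.

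Collagens are trimers of alpha chains. Fibril-forming collagens such as types I, III and V are made mainly by fibroblasts, whereas type IV collagen forms the sheet-like network of basement membranes and can be made by epithelia. Laminins join 1 alpha, 1 beta and 1 gamma chain and give epithelial cells the basal surface they attach to. Laminin 511, built from the products of Lama5, Lamb1 and Lamc1, is a common form under epithelia, and the chains of Lama3 and Lamb3 belong to laminin that anchors epithelial cells at hemidesmosomes. Lamb2 takes the place of Lamb1 in laminin 521.

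Promoter windows of 4 genes are shown because the results turn on them: Col4a1 and Col4a2, whose count ratio was nearly constant, Col8a1, which had no counts in naive organoids, and Lamb2, the one chain called in all comparisons with naive organoids. The windows run from 250 bases before to 50 bases after the RefSeq start on the gene's strand (RefSeq, GRCm38.p6) and were available for 40 of the 54 members. Col4a1 lies at chr8:11312777-11313076 on the minus strand and Col4a2 at chr8:11312555-11312854 on the plus strand. Their GENCODE starts are 21 bases apart, head to head, and the windows share 78 bases read in opposite directions. In these 2 windows capitals mark GC boxes (GGGCGG) and CCAAT boxes (CCAAT) on either strand.
Col4a1: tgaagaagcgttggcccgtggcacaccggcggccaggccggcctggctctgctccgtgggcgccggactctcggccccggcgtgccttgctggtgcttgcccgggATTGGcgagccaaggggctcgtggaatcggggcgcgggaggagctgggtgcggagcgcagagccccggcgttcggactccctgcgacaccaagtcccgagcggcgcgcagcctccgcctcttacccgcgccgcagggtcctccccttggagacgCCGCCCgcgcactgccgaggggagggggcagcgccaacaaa
Col4a2: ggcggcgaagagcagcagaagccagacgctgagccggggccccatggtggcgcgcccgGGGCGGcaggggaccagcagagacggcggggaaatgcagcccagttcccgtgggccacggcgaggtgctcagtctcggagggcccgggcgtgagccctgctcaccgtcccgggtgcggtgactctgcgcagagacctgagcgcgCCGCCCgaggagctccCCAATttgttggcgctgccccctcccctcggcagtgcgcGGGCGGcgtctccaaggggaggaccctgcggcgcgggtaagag
Capitals in the Col8a1 window (chr16:57754688-57754987, minus strand) mark GC boxes, of which it held 4.
Col8a1: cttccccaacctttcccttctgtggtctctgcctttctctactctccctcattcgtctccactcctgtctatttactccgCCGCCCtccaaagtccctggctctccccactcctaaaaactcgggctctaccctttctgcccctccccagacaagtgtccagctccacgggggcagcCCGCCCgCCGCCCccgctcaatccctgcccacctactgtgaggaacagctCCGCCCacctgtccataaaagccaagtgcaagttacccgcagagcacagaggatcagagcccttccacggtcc
Capitals in the Lamb2 window (chr9:108479612-108479911, plus strand) mark ATTGT, the SOX core ACAAT read on the other strand.
Lamb2: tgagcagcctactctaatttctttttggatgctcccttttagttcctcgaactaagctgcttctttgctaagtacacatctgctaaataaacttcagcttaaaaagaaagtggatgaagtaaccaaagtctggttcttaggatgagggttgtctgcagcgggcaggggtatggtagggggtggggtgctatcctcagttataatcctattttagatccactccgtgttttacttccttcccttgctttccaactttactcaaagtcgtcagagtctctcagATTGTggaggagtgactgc

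The 40 members had 44 windows. A GC box on either strand was in 26 of them (59.1%), against 35.7% of all 32851 RefSeq windows of the same length. The CCAAT box was in 14 windows (31.8%), against 37.4% of all. The SOX core ACAAT was in 3 (6.82%), those of Lamb2, Col3a1 and Col28a1, against 31% of all. An AP-1 site (TGANTCA) was in 1 (2.27%), that of Col6a1, against 7.81% of all. None of these motifs contains another. The median GC content of the members' windows was 59.5%, against 52.7% in all windows. These are matches of letters only.

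Library totals were 14109182 to 22154456 expected counts, and levels are given as CPM, counts scaled to library size by TMM. Sox17 had 12.4 to 74.3 CPM in the tumour-derived libraries, 72.7 CPM in the constitutive and 4.78 CPM in the inducible line, against 0.0438 to 0.214 CPM in the naive libraries. Epithelial markers summed to 7422 CPM in the constitutive and 9775 CPM in the inducible line, against 11905 to 14207 CPM in the naive libraries. They summed to 10516 to 13178 CPM in the C57Bl6 and 11442 to 12242 CPM in the RAG2KO libraries. Of 14 such markers, 8 were lower and 1 higher in SOX17OE against naive organoids, at an edgeR adjusted p under 0.05. That is 64.3%, against 12.7% of all tested genes. Against naive, 4 were lower and 2 higher in C57Bl6, and 4 lower and 1 higher in RAG2KO organoids. Of 17 fibroblast and smooth muscle markers, Des, Dpt and Pi16 were at 0 in all libraries, and the list summed to 7.39, 15.6 and 16.8 CPM in the C57Bl6, 4.38, 34.1 and 4.24 CPM in the RAG2KO, 83.7 CPM in the constitutive, 1.87 CPM in the inducible and 1.79, 1.53 and 2.34 CPM in the naive libraries. The transcription factor Twist1 gave 80.9 CPM of the sum in the constitutive line and 28.8 CPM of that in RAG2KO replicate 2. The 12 endothelial markers summed to 10.4 to 18.2 CPM in all libraries other than the constitutive line (49.0 CPM), and the 14 leukocyte markers to 4.002 to 16.2 CPM, with Cd3g and Tyrobp at 0 in all. The labels do not say that replicates came from separate cultures or animals, so p-values measure the spread between these samples alone.

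Without stroma, the organoids carried a small set of chains at clear levels and traces of most others. Counts were found for 51 of the 54 members. Col6a2, Col6a4 and Col13a1 were at 0 in all 11 libraries, which allows a level of up to 0.131 to 0.214 CPM by library (3 counts, counting error only). A further 13 members had 1 to 10 counts in all libraries together. The filter on low counts was passed by 29 members (53.7%), 21 of 43 collagen and 8 of 11 laminin chains, against 59.1% of all genes in the table. At 1 CPM or more in every library there were 10 members (18.5%), against 45.3% of all genes, and Lama3, Lama5, Lamb2, Lamb3, Lamc1, Col4a1, Col4a2, Col14a1 and Col18a1 were among them. Of the 10 members, 8 reached 10 CPM in every library, and Lamb2 and Col14a1 did not. By group, 12 members were at 1 CPM or more in every C57Bl6 library, 12 in every RAG2KO library, 16 in the constitutive line, 13 in the inducible line and 11 in every naive library.

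The fibril-forming chains known from fibroblasts were at or near 0 in most libraries. Col1a1, Col1a2, Col3a1, Col5a1 and Col5a2, the main fibril-forming chains, summed to 1, 16 and 11 counts in the C57Bl6, 0, 129 and 2 counts in the RAG2KO, 91 counts in the constitutive, 11 counts in the inducible and 3, 4 and 4 counts in the naive libraries. RAG2KO replicate 2 and the constitutive line stood apart, and in both it was Col3a1 that gave most of the counts, with 7.07 and 5.24 CPM. Col1a1 reached no more than 6 counts in any library. The members that did not pass the filter were Lama1, Lama2, Lamc3, Col1a1, Col1a2, Col2a1, Col4a6, Col5a1, Col5a2, Col5a3, Col6a1, Col6a2, Col6a3, Col6a4, Col6a6, Col8a2, Col10a1, Col13a1, Col15a1, Col17a1, Col19a1, Col22a1, Col23a1, Col24a1 and Col25a1. Lama1, Lama2 and Lamc3 had 1 count each over all libraries.

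**Figure D1:**
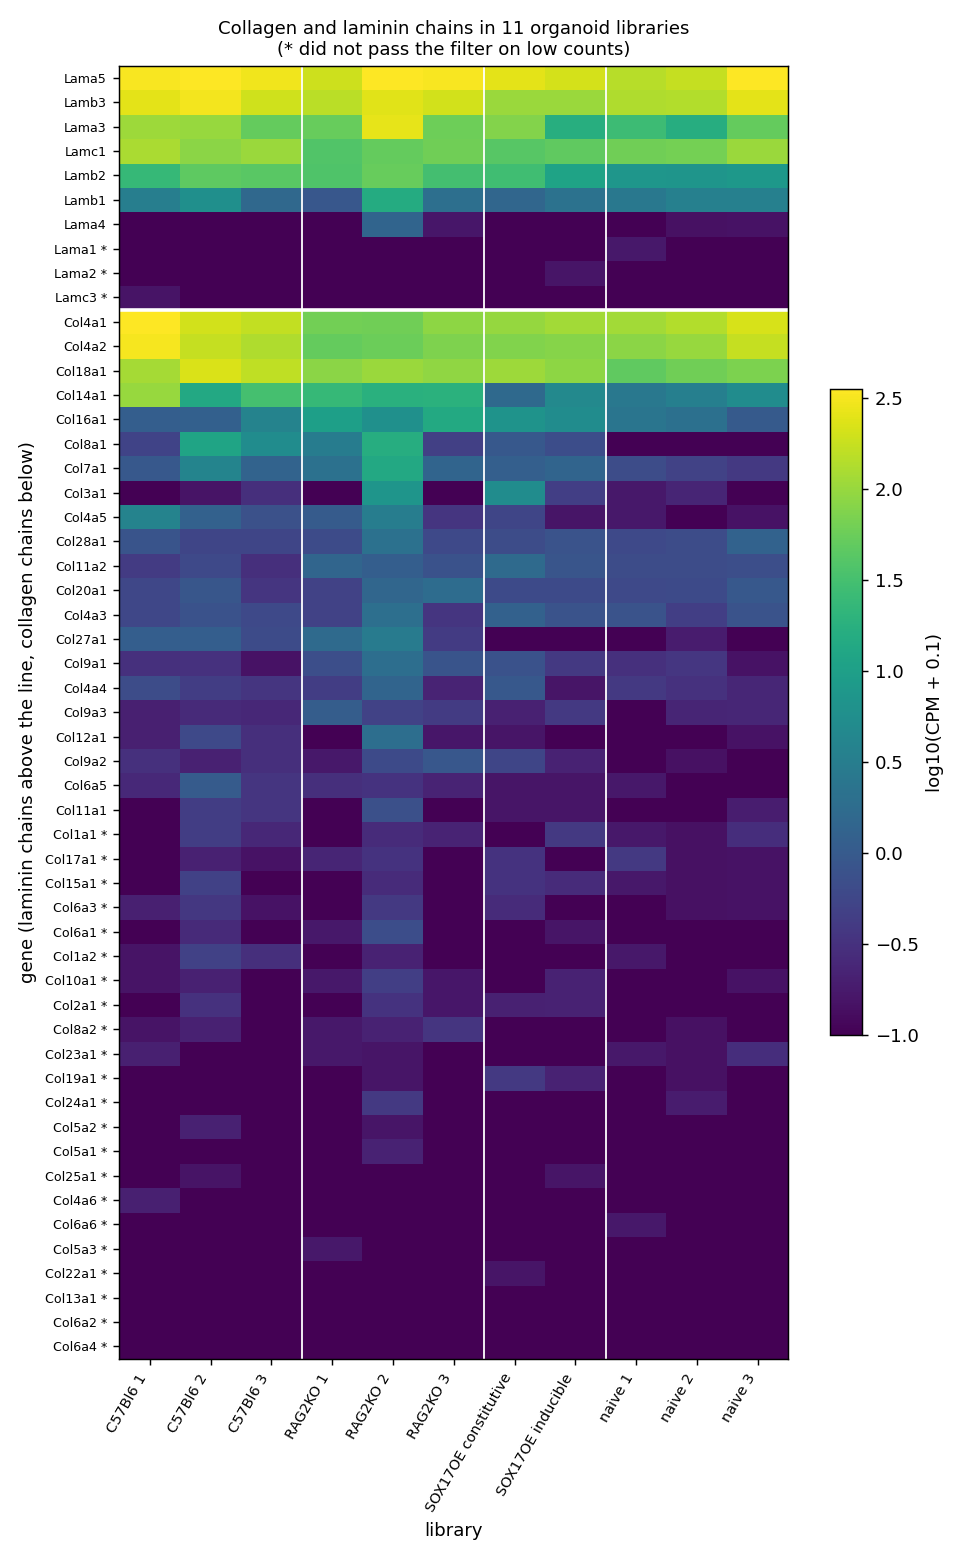
Level of 53 of the 54 chains (rows) in each of the 11 libraries (columns), as log10(CPM + 0.1), with laminin chains above the white line and collagen chains below it, each sorted by summed level. The bright rows are Lama5, Lamb3, Lama3, Lamc1 and Lamb2 among laminins and Col4a1, Col4a2, Col18a1 and Col14a1 among collagens, and the starred rows are the 25 chains that did not pass the filter.

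Levels of laminin chains were compared per length, in CPM per kilobase of the longest coding transcript. Lamb3 had 51.9 in C57Bl6, 41.7 in RAG2KO, 21.3 in constitutive SOX17OE, 21.4 in inducible SOX17OE and 36.5 in naive organoids. Lama3 was far below Lamb3, with 8.16 in C57Bl6, 11.9 in RAG2KO, 7.45 in constitutive SOX17OE, 1.59 in inducible SOX17OE and 2.98 in naive organoids. Lama5, the alpha chain of laminins 511 and 521, had 28.7 in C57Bl6, 25.4 in RAG2KO, 22.1 in constitutive SOX17OE, 18.6 in inducible SOX17OE and 19.97 in naive organoids. Its gamma partner Lamc1 had 13.9 in C57Bl6, 6.60 in RAG2KO, 5.58 in constitutive SOX17OE, 6.43 in inducible SOX17OE and 10.03 in naive organoids. In each group Lamb3 and Lama5 were both above Lamc1 and Lama3 on this scale, and Lamb2 had 6.77 in C57Bl6, 7.20 in RAG2KO, 5.15 in constitutive SOX17OE, 2.04 in inducible SOX17OE and 1.30 in naive organoids.

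Among collagens, Col4a1, Col4a2 and Col18a1 gave 72.9% to 97.7% of the summed collagen CPM of a library, and the lowest share was that of RAG2KO replicate 2. Per kilobase, Col4a1 had 36.3 in C57Bl6, 10.7 in RAG2KO, 14.8 in constitutive SOX17OE, 17.1 in inducible SOX17OE and 23.8 in naive organoids. Col4a2, its partner in the type IV trimer, had 32.7 in C57Bl6, 9.44 in RAG2KO, 11.8 in constitutive SOX17OE, 12.3 in inducible SOX17OE and 18.7 in naive organoids. Their count ratio, Col4a1 over Col4a2, stayed within 1.04 to 1.43 in all 11 libraries. Col18a1, which encodes a basement membrane collagen whose cleaved end is endostatin, had 30.1 in C57Bl6, 16.7 in RAG2KO, 19.0 in constitutive SOX17OE, 15.8 in inducible SOX17OE and 10.7 in naive organoids. Exons of Col4a1 and Col4a2 overlap on opposite strands by 22 bases at their start, and those of Lama3, Col7a1 and Col3a1 overlap a predicted gene or a microRNA gene; the strand setting of the counting is not given in the sources used here, so reads of such overlaps cannot be assigned.

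The first comparison asked which chains differ between organoids re-grown from tumours of immunocompetent mice and the naive organoids that were transplanted. Lamb2, Col18a1 and Col14a1 rose clearly in C57Bl6 organoids, and 4 collagen chains that were at or near 0 in naive organoids also rose. Of the 29 chains tested, 7 were called higher (24.1%) and 0 lower at an edgeR adjusted p under 0.05, where 15.3% of all 13720 tested genes were called in either direction, 9.5% higher and 5.85% lower. At an unadjusted p under 0.05 there were 11 chains, a level at which all genes were not counted, so no share stands beside it. The median log2 fold change was 0.81 over the tested chains, against 0.02 over all tested genes. The fibroblast and smooth muscle markers also summed higher, at 7.39 to 16.8 CPM in the C57Bl6 libraries, against 1.53 to 2.34 CPM in the naive libraries, and their part in these results was not tested. In bulk samples, fewer cells of a type and less RNA per cell cannot be told apart. Among the 29, 13 had under 10 counts in every naive library and could pass the filter through other groups alone, and 4 of the 7 calls were among them. The median of 0.81 includes these 13, and no median was taken over the other 16. Among the other 16, 3 were called higher (18.8%) and 0 lower. The count of calls was 4 without C57Bl6 replicate 2, 3 without naive replicate 1 and 4 without naive replicate 2. Over all genes it was 1598, 1096 and 1030 in these settings, against 2106 with all libraries.

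Lamb2, the beta chain of laminin 521, had 23.7, 47.0 and 43.7 CPM in the C57Bl6 libraries, against 7.29, 7.06 and 7.67 CPM in the naive libraries. The lowest C57Bl6 library was above the highest naive one by a wide gap, and the naive values were nearly equal. Lamb2 averaged 38.1 ± 12.6 CPM in C57Bl6 and 7.34 ± 0.313 CPM in naive organoids (SD, n = 3 each; log2 fold change 2.38 ± 0.28 SE, edgeR adjusted p = 6.12e-04). Lamb1, its alternative, had 3.25, 5.78 and 1.46 CPM in the C57Bl6 libraries, against 2.57, 3.42 and 3.38 CPM in the naive libraries, and was not called (edgeR adjusted p = 0.935). The ratio of Lamb2 to Lamb1 counts was 7.29, 8.14 and 29.8 in the C57Bl6 libraries, against 2.83, 2.06 and 2.27 in the naive libraries.

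Lama3, Lama5, Lamb3 and Lamc1 were higher on average in C57Bl6 organoids without passing the test. Without naive replicate 3, which was the highest naive library for all 4 of them, the adjusted p was 0.0308 for Lama5 and 0.0476 for Lamb3. Lama5 had 333, 347 and 302 CPM in the C57Bl6 libraries, against 149.9, 176 and 357 CPM in the naive libraries (edgeR adjusted p = 0.310). Naive replicate 3 had the highest Lama5 level of all 11 libraries. Lamb3 had 253, 308 and 197 CPM in the C57Bl6 libraries, against 136, 139 and 258 CPM in the naive libraries (edgeR adjusted p = 0.263). Lama3 had 108, 99.3 and 50.8 CPM in the C57Bl6 libraries, against 26.8, 16.5 and 51.1 CPM in the naive libraries, and the groups met at nearly the same level (edgeR adjusted p = 0.173, 0.0477 without RAG2KO replicate 2). Lamc1 had 125, 86.8 and 105 CPM in the C57Bl6 libraries, against 60.4, 65.2 and 104 CPM in the naive libraries, with C57Bl6 replicate 2 inside the naive range (edgeR adjusted p = 0.215).

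**Figure D2:**
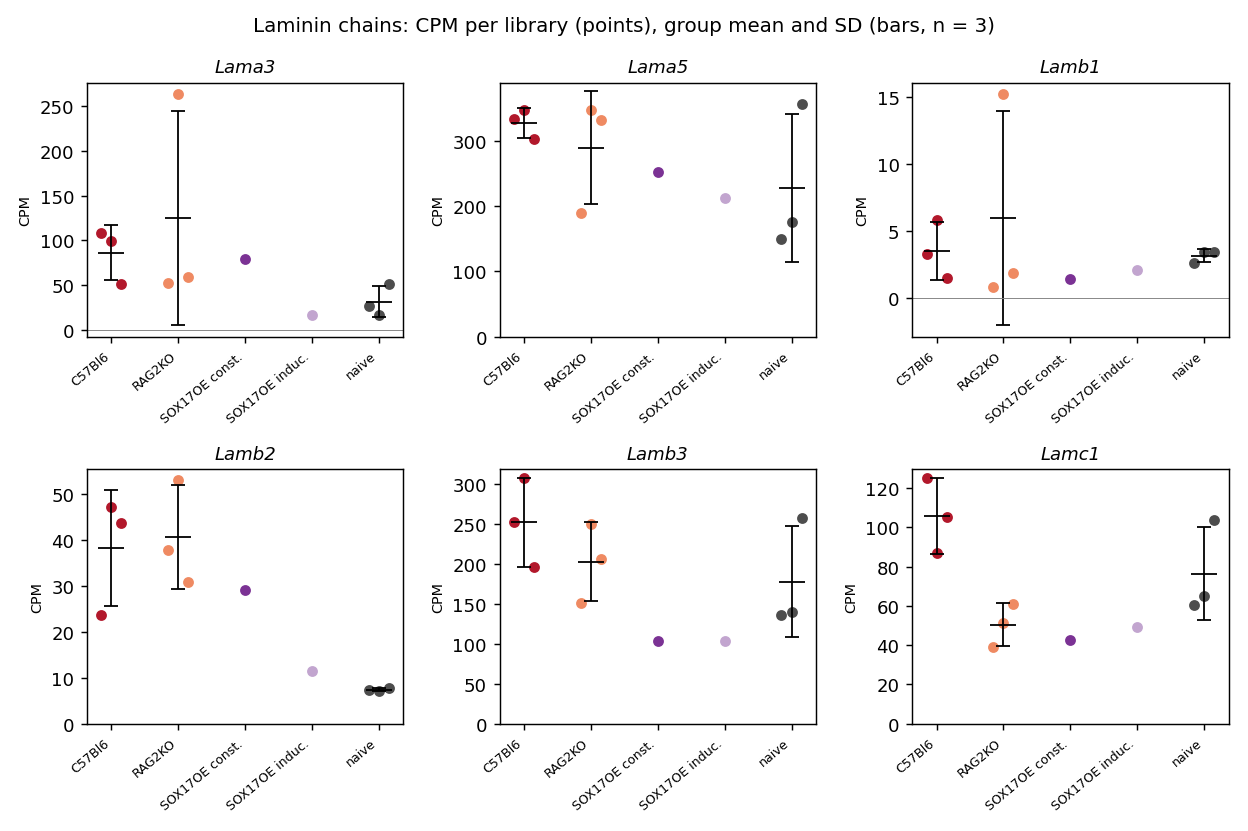
CPM of 6 laminin chains (panels) in each library, with points for libraries and, for groups of 3, a bar for the mean with its SD; groups run from C57Bl6 and RAG2KO through the SOX17OE lines to naive. The 3 naive libraries lie together at 7.06 to 7.67 CPM for Lamb2, below every other library, and RAG2KO replicate 2 is the highest point for Lama3 (264 CPM) and Lamb1 (15.2 CPM).

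Col18a1 had 118, 222 and 164 CPM in the C57Bl6 libraries, against 49.1, 60.4 and 70.6 CPM in the naive libraries. The C57Bl6 libraries were all above the naive ones (mean 168 ± 52.0 CPM in C57Bl6 and 60.03 ± 10.7 CPM in naive, SD, n = 3 each; log2 fold change 1.48 ± 0.22 SE, edgeR adjusted p = 0.00216). Col14a1, a collagen that sits on the surface of fibrils, had 100.1, 14.03 and 31.6 CPM in the C57Bl6 libraries, against 2.57, 3.33 and 5.20 CPM in the naive libraries. C57Bl6 replicate 1 was several times higher than the other C57Bl6 libraries, and the lowest of them was still above all naive ones (log2 fold change 3.70 ± 0.66 SE, edgeR adjusted p = 0.00606). Col14a1 had a log2 fold change of 2.61 without C57Bl6 replicate 1 in C57Bl6 against naive. The main type IV chains were not called. Col4a1 had 349, 202 and 168 CPM in the C57Bl6 libraries, against 116, 141 and 214 CPM in the naive libraries, and the ranges overlapped (edgeR adjusted p = 0.212). Col4a2 had 323, 174 and 135 CPM in the C57Bl6 libraries, against 85.3, 102 and 174 CPM in the naive libraries, and also overlapped (edgeR adjusted p = 0.152).

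The other 4 calls rested on few counts. Col8a1, a short-chain collagen of vessel and corneal matrices, had 0.419, 11.8 and 5.25 CPM in the C57Bl6 libraries, against 0 counts in all naive libraries. Its level was at least 35.8-fold higher in C57Bl6 organoids, taking 3 counts per naive library as the floor, and at least 17.4-fold without C57Bl6 replicate 2 (edgeR adjusted p = 0.0492). For Col8a1 in C57Bl6 against naive, the adjusted p was 0.0502 with upper quartile scaling, 0.145 with no filter, 0.235 with limma voom, 0.0892 without C57Bl6 replicate 2, 0.0786 without C57Bl6 replicate 3, 0.0764 without RAG2KO replicate 1, 0.0501 without the constitutive library, 0.0503 without the inducible library, 0.111 without naive replicate 1, 0.126 without naive replicate 2 and 0.118 without naive replicate 3, and it ran from 7.62e-05 to 0.235 over 19 alternatives. C57Bl6 replicate 1 was far below the other C57Bl6 libraries. Col4a5, the type IV chain missing in X-linked Alport syndrome in humans, had 3.83, 1.18 and 0.657 CPM in the C57Bl6 libraries, against 0.0715, 0 and 0.0477 CPM in the naive libraries. With 2 naive counts in all, it was 54.5-fold (95% counting interval 14.7 to 456) higher, 26.1-fold without C57Bl6 replicate 1, 82.6-fold without naive replicate 1 and 33.0-fold without naive replicate 2 (edgeR adjusted p = 0.0175). For Col4a5 in C57Bl6 against naive, the adjusted p was 0.0660 with limma voom, 0.0583 without naive replicate 1, 0.0760 without naive replicate 2 and 0.0589 without naive replicate 3, and it ran from 8.28e-04 to 0.0760 over 20 alternatives.

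Col27a1, a fibril-forming chain of cartilage, had 1.05, 1.07 and 0.556 CPM in the C57Bl6 libraries, against 0, 0.0876 and 0 CPM in the naive libraries. It was 25.5-fold (95% counting interval 6.69 to 216) higher on 2 naive counts, at least 4.98-fold without naive replicate 2 and 16.2-fold without naive replicate 3 (edgeR adjusted p = 0.0237). For Col27a1 in C57Bl6 against naive, the adjusted p was 0.0600 with limma voom, 0.0531 without C57Bl6 replicate 2, 0.0831 without naive replicate 1 and 0.0740 without naive replicate 3, and it ran from 0.00861 to 0.0831 over 20 alternatives. Col6a5, a type VI chain, had 0.157, 0.954 and 0.253 CPM in the C57Bl6 libraries, against 0.0715, 0 and 0 CPM in the naive libraries, where it had 1 count. It was 25.5-fold (95% counting interval 4.17 to 1046) higher, 11.9-fold without C57Bl6 replicate 2, at least 3.31-fold without naive replicate 1, 15.4-fold without naive replicate 2 and 16.2-fold without naive replicate 3 (edgeR adjusted p = 0.0433). For Col6a5 in C57Bl6 against naive, the adjusted p was 0.0578 with limma voom, 0.0576 without C57Bl6 replicate 3, 0.0577 without RAG2KO replicate 1, 0.0534 without RAG2KO replicate 3, 0.0684 without naive replicate 1, 0.155 without naive replicate 2 and 0.126 without naive replicate 3, and it ran from 0.0320 to 0.155 over 16 alternatives. For both genes the C57Bl6 libraries all lay above the naive ones. For Col27a1, Col4a5 and Col8a1 the naive values were at the limit of what these depths can show.

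The second comparison asked the same of organoids re-grown from tumours of RAG2KO mice. It shares the naive libraries with the first, so the pair is not independent. Lamb2 and Col16a1 rose in RAG2KO organoids, Col4a1 fell, and a group of low collagen chains was higher, most of all in RAG2KO replicate 2. Of the 29 chains tested, 10 were called higher and 1 lower (37.9% in all), where 29.2% of all tested genes were called, 16% higher and 13.3% lower. At an unadjusted p under 0.05 there were 19 chains, and all genes were not counted at that level, so no share stands beside it. The median log2 fold change was 2.43, against 0.02 over all tested genes. Of the 10 rises, 6 were among the 13 chains with under 10 counts in every naive library. The median of 2.43 includes those 13, which could pass the filter through other groups alone, and no median was taken over the other 16. Among the other 16, 4 were called higher (25%) and 1 lower (6.25%). The fibroblast and smooth muscle markers summed to 4.38, 34.1 and 4.24 CPM in RAG2KO libraries, against 1.79, 1.53 and 2.34 CPM in the naive libraries, and their part in these results was not tested. Most of the 34.1 CPM came from Twist1 alone. The count of called chains was 4 (all higher) without RAG2KO replicate 2, 6 without naive replicate 1, 4 without naive replicate 2 and 6 without naive replicate 3. Counts over all genes are given for 2 of these settings, and both fell too. For those without naive replicate 1 or 3 they are not given here, so these drops cannot be called particular to the chains. Without RAG2KO replicate 2, the 4 were of 26 chains tested, and 2466 of 13547 genes were called, from 4010 of 13720. Without naive replicate 2, 2041 genes were called. Col14a1, Col27a1, Col4a5, Col8a1 and Lamb2 were called higher in both tumour groups, 5 of the 7 rises in C57Bl6 and of the 10 in RAG2KO organoids. Both comparisons use the same naive libraries, where Col27a1, Col4a5 and Col8a1 had 0 to 2 counts in all. The share of rises common to both was not counted over all genes, so the overlap cannot be called particular to these chains.

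Lamb2 had 37.7, 53.0 and 30.9 CPM in RAG2KO libraries, against 7.29, 7.06 and 7.67 CPM in the naive libraries. All RAG2KO libraries were above all naive ones (mean 40.5 ± 11.3 CPM in RAG2KO and 7.34 ± 0.313 CPM in naive, SD, n = 3 each; log2 fold change 2.46 ± 0.28 SE, edgeR adjusted p = 4.73e-04). Lamb1 had 0.809, 15.2 and 1.87 CPM in RAG2KO libraries, against 2.57, 3.42 and 3.38 CPM in the naive libraries. RAG2KO replicate 2 was far above and the other RAG2KO libraries were below the naive ones, so the Lamb2 to Lamb1 ratio was 46.7, 3.48 and 16.5, and it exceeded the naive ratios in each RAG2KO library. Lama3 had 52.6, 264 and 58.9 CPM in RAG2KO libraries, against 26.8, 16.5 and 51.1 CPM in the naive libraries. RAG2KO replicate 2 was far above all others, and the other RAG2KO libraries were barely above the highest naive one (log2 fold change 1.99 ± 0.66 SE, edgeR adjusted p = 0.0495). For Lama3 in RAG2KO against naive, the adjusted p was 0.0543 with library totals, 0.124 with no filter, 0.0647 with limma voom, 0.0555 in a fit of only the groups compared, 0.133 with a replicate block, 0.0531 without C57Bl6 replicate 1, 0.0554 without C57Bl6 replicate 2, 0.0510 without C57Bl6 replicate 3, 0.235 without RAG2KO replicate 2, 0.132 without naive replicate 1, 0.156 without naive replicate 2 and 0.0593 without naive replicate 3, and it ran from 0.0272 to 0.235 over 20 alternatives. Lama3 had a log2 fold change of 0.83 without RAG2KO replicate 2 in RAG2KO against naive.

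The remaining laminin chains were not called. Lama5 had 190.1, 347 and 331 CPM in RAG2KO libraries (edgeR adjusted p = 0.446, 0.0409 without naive replicate 3), and Lamb3 had 151, 250.3 and 207 CPM (edgeR adjusted p = 0.646). Lamc1 had 39.0, 51.0 and 60.9 CPM in RAG2KO and 60.4, 65.2 and 104 CPM in naive libraries, and was lower on average (log2 fold change -0.60 ± 0.24 SE, edgeR adjusted p = 0.0810). Lama4, a chain of vessel and muscle basement membranes, had 22 of its 25 counts in RAG2KO replicate 2 and was not called (edgeR adjusted p = 0.148).

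Col4a1 had 63.1, 59.6 and 89.4 CPM in RAG2KO libraries, against 116, 141 and 214 CPM in the naive libraries. It fell, with no overlap of the groups (mean 70.7 ± 16.3 CPM in RAG2KO and 157 ± 51.2 CPM in naive, SD, n = 3 each; log2 fold change -1.15 ± 0.31 SE, edgeR adjusted p = 0.0220). For Col4a1 in RAG2KO against naive, the adjusted p was 0.0675 without RAG2KO replicate 1, 0.0722 without RAG2KO replicate 2 and 0.0792 without naive replicate 3, and it ran from 0.00150 to 0.0792 over 20 alternatives. Col4a2 had 51.8, 57.3 and 73.6 CPM in RAG2KO libraries, against 85.3, 102 and 174 CPM in the naive libraries. The groups did not overlap either, and the test missed the threshold (log2 fold change -0.98 ± 0.35 SE, edgeR adjusted p = 0.0607), which it passed without C57Bl6 replicate 1 (0.0211) and without C57Bl6 replicate 3 (0.0450). Col18a1 had 84.8, 105 and 90.7 CPM in RAG2KO libraries, against 49.1, 60.4 and 70.6 CPM in the naive libraries. It was higher with no overlap and just missed the threshold (log2 fold change 0.64 ± 0.22 SE, edgeR adjusted p = 0.0522), which it passed without C57Bl6 replicate 1 (0.0218) and without C57Bl6 replicate 2 (0.0258). Over 20 alternatives the adjusted p ran from 0.0170 to 0.218 for Col4a2 and from 0.0193 to 0.157 for Col18a1.

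Col16a1, a fibril-associated collagen, had 9.91, 5.96 and 14.5 CPM in RAG2KO libraries, against 2.29, 1.93 and 0.906 CPM in the naive libraries. Each RAG2KO library was well above each naive one (log2 fold change 2.57 ± 0.58 SE, edgeR adjusted p = 0.0100). Col14a1 had 24.0, 17.7 and 18.7 CPM in RAG2KO libraries, against 2.57, 3.33 and 5.20 CPM in the naive libraries, with no overlap (log2 fold change 2.43 ± 0.63 SE, edgeR adjusted p = 0.0207). For Col14a1 in RAG2KO against naive, the adjusted p was 0.0558 with no filter, 0.0635 with limma voom, 0.0518 without RAG2KO replicate 1, 0.0692 without naive replicate 1 and 0.0785 without naive replicate 2, and it ran from 9.80e-05 to 0.0785 over 20 alternatives. Col7a1, which forms the anchoring fibrils under squamous epithelia, had 2.02, 13.8 and 1.31 CPM in RAG2KO libraries, against 0.572, 0.394 and 0.286 CPM in the naive libraries. RAG2KO replicate 2 was several times above the other RAG2KO libraries (log2 fold change 3.78 ± 0.99 SE, edgeR adjusted p = 0.0198). For Col7a1 in RAG2KO against naive, the adjusted p was 0.0802 with limma voom, 0.0739 without RAG2KO replicate 2, 0.0747 without naive replicate 2 and 0.0746 without naive replicate 3, and it ran from 2.61e-04 to 0.0802 over 20 alternatives. Col7a1 had a log2 fold change of 2.01 without RAG2KO replicate 2 in RAG2KO against naive.

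Col8a1 had 2.97, 16.3 and 0.374 CPM in RAG2KO libraries, against 0 counts in all naive libraries, and was at least 40.2-fold higher, at least 10.2-fold without RAG2KO replicate 2 (edgeR adjusted p = 0.0299). For Col8a1 in RAG2KO against naive, the adjusted p was 0.0961 with no filter, 0.186 with limma voom, 0.0735 without RAG2KO replicate 2, 0.0623 without naive replicate 1, 0.0812 without naive replicate 2 and 0.0821 without naive replicate 3, and it ran from 3.54e-05 to 0.186 over 19 alternatives. Col4a5 had 0.944, 3.15 and 0.249 CPM in RAG2KO libraries, against 0.0715, 0 and 0.0477 CPM in the naive libraries. It was 43.3-fold (95% counting interval 11.6 to 365) higher, 16.8-fold without RAG2KO replicate 2, 65.7-fold without naive replicate 1 and 26.2-fold without naive replicate 2 (edgeR adjusted p = 0.0156). For Col4a5 in RAG2KO against naive, the adjusted p was 0.0749 with limma voom, 0.0579 without RAG2KO replicate 2, 0.0641 without naive replicate 2 and 0.0518 without naive replicate 3, and it ran from 0.00133 to 0.0749 over 19 alternatives. Col27a1 had 1.62, 2.86 and 0.312 CPM in RAG2KO libraries, against 0, 0.0876 and 0 CPM in the naive libraries. It was 47.0-fold (95% counting interval 12.6 to 395) higher, 27.1-fold without RAG2KO replicate 2, at least 8.94-fold without naive replicate 2 and 29.9-fold without naive replicate 3 (edgeR adjusted p = 0.00709). RAG2KO replicate 3 was the lowest RAG2KO library for these 3 genes, and RAG2KO replicate 2 the highest.

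A pair of type IX chains, collagens that coat cartilage fibrils, was also called. Col9a1 had 0.607, 1.81 and 0.748 CPM in RAG2KO libraries, against 0.214, 0.263 and 0.0477 CPM in the naive libraries (log2 fold change 2.56 ± 0.78 SE, edgeR adjusted p = 0.0329). For Col9a1 in RAG2KO against naive, the adjusted p was 0.116 without RAG2KO replicate 2, 0.0711 without naive replicate 1, 0.0694 without naive replicate 2 and 0.104 without naive replicate 3, and it ran from 0.0192 to 0.116 over 19 alternatives. Col9a1 had a log2 fold change of 1.93 without RAG2KO replicate 2 in RAG2KO against naive. Col9a2 had 0.0674, 0.526 and 0.811 CPM in RAG2KO libraries, against 0, 0.0438 and 0 CPM in the naive libraries, where it had 1 count. It was 27.7-fold (95% counting interval 4.50 to 1141) higher, 18.1-fold without RAG2KO replicate 3, at least 2.62-fold without naive replicate 2 and 17.6-fold without naive replicate 3 (edgeR adjusted p = 0.0224). For Col9a2 in RAG2KO against naive, the adjusted p was 0.0504 without RAG2KO replicate 2, 0.0625 without naive replicate 1, 0.0556 without naive replicate 2 and 0.0756 without naive replicate 3, and it ran from 0.0105 to 0.0756 over 16 alternatives. The RAG2KO and naive libraries did not overlap for either gene, though all values were under 2 CPM. Col9a3, the third type IX chain, had 1.01, 0.409 and 0.312 CPM in RAG2KO libraries, against 0, 0.131 and 0.143 CPM in the naive libraries, and was not called (edgeR adjusted p = 0.0530).

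**Figure D3:**
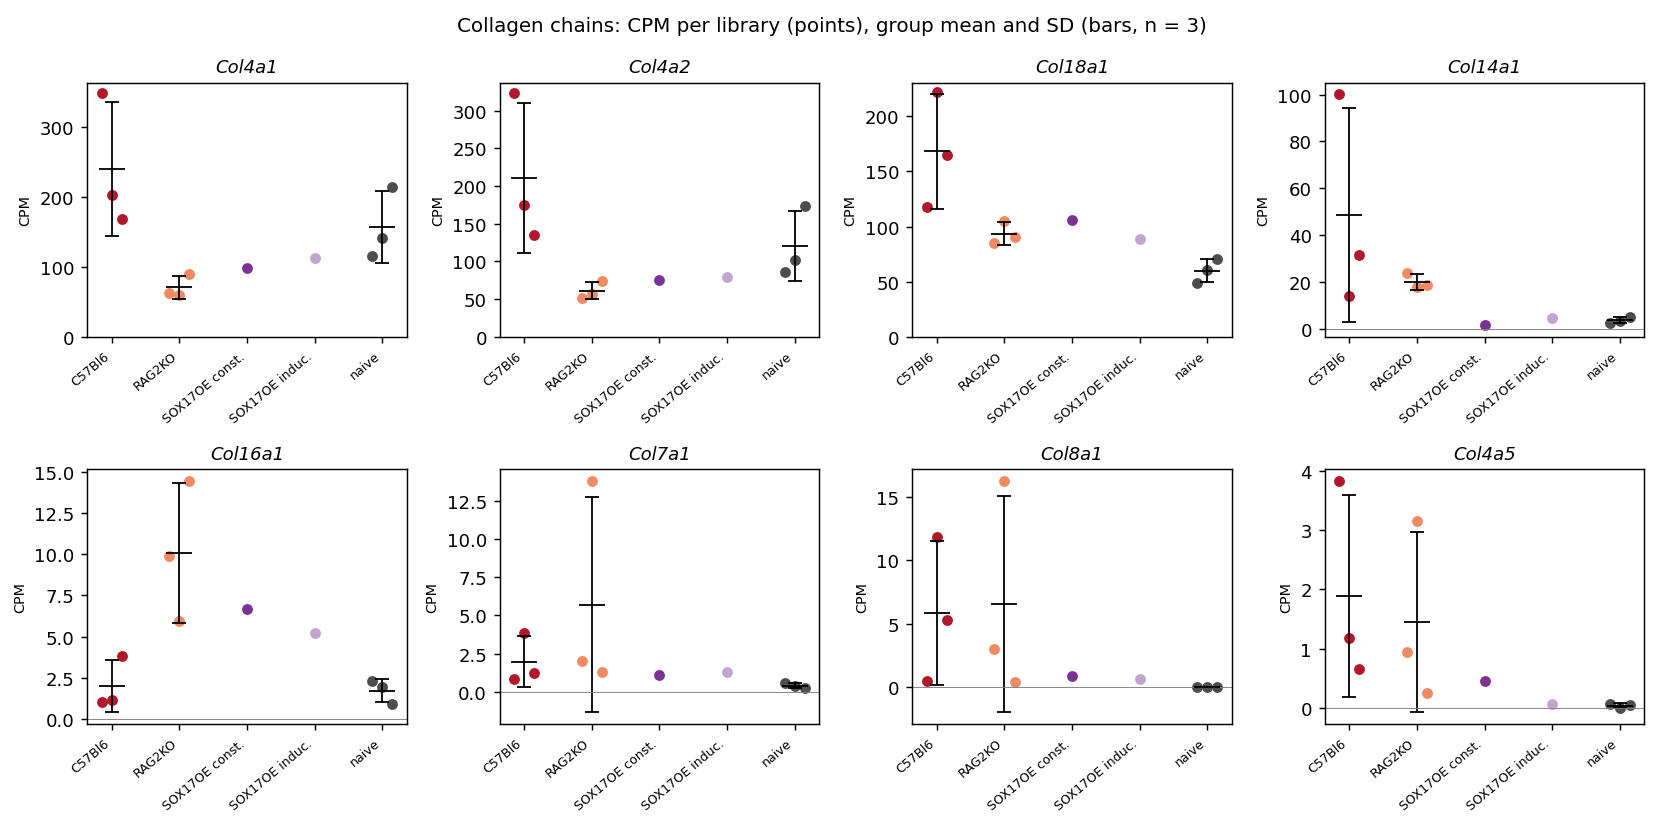
CPM of 8 collagen chains (panels) in each library, with points for libraries and, for groups of 3, a bar for the mean with its SD; groups run from C57Bl6 and RAG2KO through the SOX17OE lines to naive. For Col4a1 and Col4a2 the 3 RAG2KO libraries (51.8 to 89.4 CPM) lie below every C57Bl6 library, for Col16a1 they lie above every C57Bl6 library, and the Col8a1 points of the naive libraries are at 0.

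The third comparison set the C57Bl6 against the RAG2KO organoids directly. The type IV pair Col4a1 and Col4a2, the laminin gamma chain Lamc1 and Col18a1 were higher in C57Bl6 organoids, whereas Col16a1 and Col9a1 were lower. Of the 29 chains tested, 4 were called higher and 2 lower (20.7% in all), where 24% of all tested genes were called, 12.2% higher and 11.8% lower. Over all genes, 1677 were higher and 1618 lower, a split of 1150 and 2017 with upper quartile scaling and of 2263 and 1290 with library totals. The share of chains called was close to that of all genes. At an unadjusted p under 0.05 there were 10 chains, with no count over all genes at that level. The median log2 fold change was -0.59, against 0.0011 over all tested genes. It covers all 29 chains, also those that could pass the filter through 1 library. Upper quartile scaling shifted all genes by a median of -0.10 on the log2 scale here. The count of called chains was 3 without RAG2KO replicate 3, all of them higher, and that over all genes was 2018, against 3295 with all libraries. The share of counts in Rn45s also differed between these groups without overlap, and its part in the result was not tested.

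For Col4a1 the C57Bl6 libraries (349, 202 and 168 CPM) were all above the RAG2KO libraries (63.1, 59.6 and 89.4 CPM). It averaged 239.9 ± 95.8 CPM in C57Bl6 and 70.7 ± 16.3 CPM in RAG2KO organoids (SD, n = 3 each; log2 fold change 1.76 ± 0.31 SE, edgeR adjusted p = 0.00582). For Col4a2 the C57Bl6 libraries (323, 174 and 135 CPM) were likewise all above the RAG2KO libraries (51.8, 57.3 and 73.6 CPM). It averaged 211 ± 99.4 CPM in C57Bl6 and 60.9 ± 11.3 CPM in RAG2KO organoids (log2 fold change 1.79 ± 0.36 SE, edgeR adjusted p = 0.00914). Both calls passed in all 20 alternatives. Lamc1 had 125, 86.8 and 105 CPM in the C57Bl6 libraries, against 39.0, 51.0 and 60.9 CPM in the RAG2KO libraries. The groups did not overlap (log2 fold change 1.07 ± 0.24 SE, edgeR adjusted p = 0.0127), and this call also passed in all 20 alternatives. Col4a1 and Col4a2 build the common type IV trimer, and Lamc1 is the gamma chain of laminins 511 and 521. The test missed the threshold for other laminin chains, with edgeR adjusted p of 0.559 for Lama3, 0.713 for Lama5, 0.553 for Lamb1, 0.823 for Lamb2, 0.433 for Lamb3 and 0.0786 for Lama4.

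Col18a1 had 118, 222 and 164 CPM in the C57Bl6 libraries, against 84.8, 105 and 90.7 CPM in the RAG2KO libraries. The groups did not overlap (log2 fold change 0.84 ± 0.22 SE, edgeR adjusted p = 0.0224). For Col18a1 in C57Bl6 against RAG2KO, the adjusted p was 0.0588 without C57Bl6 replicate 2, 0.0552 without C57Bl6 replicate 3, 0.0604 without RAG2KO replicate 1 and 0.0663 without RAG2KO replicate 3, and it ran from 0.00343 to 0.0663 over 20 alternatives. Col16a1 went the other way, with 1.05, 1.12 and 3.84 CPM in the C57Bl6 libraries, against 9.91, 5.96 and 14.5 CPM in the RAG2KO libraries. It was lower in C57Bl6 organoids (log2 fold change -2.33 ± 0.57 SE, edgeR adjusted p = 0.0177). For Col16a1 in C57Bl6 against RAG2KO, the adjusted p was 0.0578 without RAG2KO replicate 3, and it ran from 4.96e-04 to 0.0578 over 20 alternatives. Col16a1 had a log2 fold change of -3.21 without C57Bl6 replicate 3 in C57Bl6 against RAG2KO. Col9a1 had 0.210, 0.224 and 0.0505 CPM in the C57Bl6 libraries, against 0.607, 1.81 and 0.748 CPM in the RAG2KO libraries, and was also lower (log2 fold change -2.67 ± 0.78 SE, edgeR adjusted p = 0.0339). For Col9a1 in C57Bl6 against RAG2KO, the adjusted p was 0.0599 without C57Bl6 replicate 1, 0.0537 without C57Bl6 replicate 2, 0.101 without C57Bl6 replicate 3, 0.102 without RAG2KO replicate 2, 0.0524 without RAG2KO replicate 3 and 0.0510 without naive replicate 2, and it ran from 0.0232 to 0.102 over 19 alternatives. Col9a1 had a log2 fold change of -2.04 without RAG2KO replicate 2 in C57Bl6 against RAG2KO. Col14a1 was higher on average in C57Bl6 organoids through C57Bl6 replicate 1 and was not called (log2 fold change 1.27 ± 0.59 SE, edgeR adjusted p = 0.139, 0.0269 without C57Bl6 replicate 2).

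The last comparison took the mean of the constitutive and inducible SOX17OE lines against naive organoids. Of the 29 chains tested, Lamb2 alone was called (1 higher, 3.45%), where 12.7% of all tested genes were called, 6.77% higher and 5.92% lower. At an unadjusted p under 0.05 there were 6 chains, with no count over all genes at that level. Each line has 1 library and was assumed to vary like the other groups. The fibroblast and smooth muscle markers summed to 83.7 CPM in the constitutive and 1.87 CPM in the inducible line, against 1.79, 1.53 and 2.34 CPM in the naive libraries, and their part in the result was not tested. Most of the 83.7 CPM came from Twist1 alone. The median log2 fold change was 0.21, against -0.01 over all tested genes. It covers all 29 chains, also those that could pass the filter through other groups alone. Lamb2 had 28.99 CPM in the constitutive and 11.5 CPM in the inducible line, against 7.29, 7.06 and 7.67 CPM in the naive libraries. Both lines were above all naive libraries, the constitutive one further (log2 fold change 1.31 ± 0.30 SE, edgeR adjusted p = 0.0229). For Lamb2 in SOX17OE against naive, the adjusted p was 0.0589 with limma voom, 0.387 without the constitutive library, 0.0516 without naive replicate 1, 0.0776 without naive replicate 2 and 0.0681 without naive replicate 3, and it ran from 0.00115 to 0.387 over 19 alternatives. Lamb2 had a log2 fold change of 0.65 without the constitutive library and 1.98 without the inducible library in SOX17OE against naive. The count of calls was 2 without any 1 of C57Bl6 replicates 1, 2 and 3 or RAG2KO replicate 2, and 0 without the constitutive library or without any 1 of the naive libraries.

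No other laminin chain was called. Lama3 had 78.6 CPM in the constitutive and 16.8 CPM in the inducible line, on either side of the naive mean of 31.5 ± 17.8 CPM (SD, n = 3). Lamb3 had 104 and 104 CPM in these lines and Lamc1 42.5 and 49.0 CPM, all below every naive library (edgeR adjusted p = 0.136 for Lamb3 and 0.0957 for Lamc1). Lama5 had 252 CPM in the constitutive and 212 CPM in the inducible line, within the naive range (edgeR adjusted p = 0.982). Lamb1 had 1.38 and 2.10 CPM.

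Col16a1 had 6.69 CPM in the constitutive and 5.19 CPM in the inducible line, above all naive libraries, and missed the threshold (log2 fold change 1.79 ± 0.61 SE, edgeR adjusted p = 0.0805, 0.0407 without C57Bl6 replicate 3). Col18a1 had 106 CPM in the constitutive and 88.5 CPM in the inducible line, also above all naive libraries (edgeR adjusted p = 0.0867, 0.0414 without C57Bl6 replicate 1 and 0.0472 without C57Bl6 replicate 2). Col4a1 had 98.0 CPM in the constitutive and 113 CPM in the inducible line, and Col4a2 had 76.0 and 79.4 CPM, both below the naive libraries (edgeR adjusted p = 0.291 for Col4a1 and 0.310 for Col4a2). Col14a1, which rose in both tumour groups, had 1.56 CPM in the constitutive and 4.66 CPM in the inducible line, around the naive range (edgeR adjusted p = 0.713). Col8a1 had 0.864 CPM in the constitutive and 0.583 CPM in the inducible line, against 0 counts in naive libraries, at least 4.44-fold higher (edgeR adjusted p = 0.207). Col27a1 was at 0 in both lines. Col3a1, the type III chain, had 5.24 CPM in the constitutive and 0.350 CPM in the inducible line, against 0.0715, 0.131 and 0 CPM in the naive libraries (edgeR adjusted p = 0.232, 0.0375 without RAG2KO replicate 2). Col7a1 had 1.10 and 1.28 CPM, and Col4a5 0.461 and 0.0583 CPM.

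The other 9 tested chains were low and were not called in any of the 4 comparisons. They are Lama4, the type IV chains Col4a3 and Col4a4 of kidney basement membranes, Col9a3, the fibril-forming Col11a1 and Col11a2 of cartilage, the fibril-associated Col12a1 and Col20a1, and Col28a1. Their highest level in any library was 2.04 CPM, that of Col28a1 in RAG2KO replicate 2. Closest to the threshold was Col11a2, with 0.314, 0.505 and 0.202 CPM in the C57Bl6 libraries, against 1.35, 1.05 and 0.686 CPM in the RAG2KO libraries (edgeR adjusted p = 0.0502). Those groups did not overlap.

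**Figure D4:**
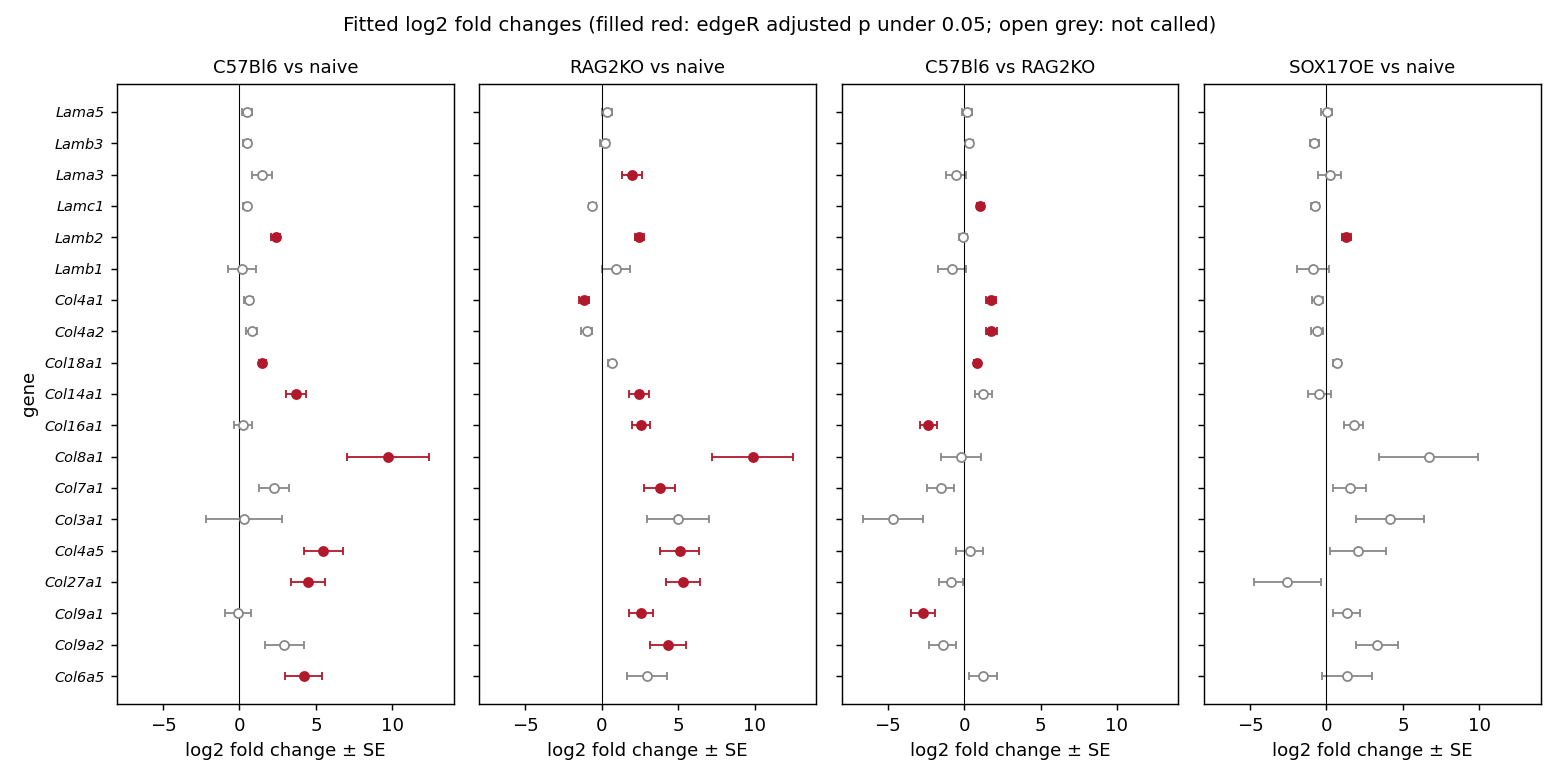
Fitted log2 fold change (horizontal axis) with its SE for 19 chains (rows) in the 4 comparisons (panels), with filled red points for chains at an edgeR adjusted p under 0.05. Lamb2 is filled in the 3 panels against naive organoids (2.38, 2.46 and 1.31), and Col4a1, Col4a2, Col18a1 and Lamc1 are filled on the right in the panel of C57Bl6 against RAG2KO, with Col16a1 and Col9a1 on the left. The values of Col8a1, Col4a5, Col27a1, Col9a2 and Col6a5, which had 0 to 2 counts in all naive libraries together, depend on the prior count of the fit.

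RAG2KO replicate 2 stood apart for these genes. It held the highest CPM of the 11 libraries for 20 of the 54 members and for 14 of the 29 tested (48.3%), against 12% of all tested genes. Lama3, Lama4, Lamb1, Lamb2, Col3a1, Col7a1, Col8a1, Col9a1, Col12a1 and Col27a1 were among them. A chain could pass the filter through 1 library alone, so the 48.3% is partly set by the filter. Without RAG2KO replicate 2, 26 chains passed it in place of 29. Lama4 had 22 of its 25 counts in that library, Col12a1 31 of 49 and Col11a1 11 of 26. In RAG2KO replicate 2 the fibroblast and smooth muscle markers summed to 34.1 CPM, against 4.38 and 4.24 CPM in the other RAG2KO libraries. Most of the 34.1 CPM came from Twist1 alone. Dcn, a fibroblast proteoglycan and another marker of the list, had 0.0674, 1.28 and 0.125 CPM in RAG2KO replicates 1, 2 and 3. Col1a1 had 3 and Col1a2 had 2 counts in RAG2KO replicate 2. The part of those markers in the result was not tested. C57Bl6 replicate 1 held the highest level of 6 tested chains (20.7%, against 12.3% of all tested genes), Col4a1, Col4a2, Col14a1 and Lamc1 among them.

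**Figure D5:**
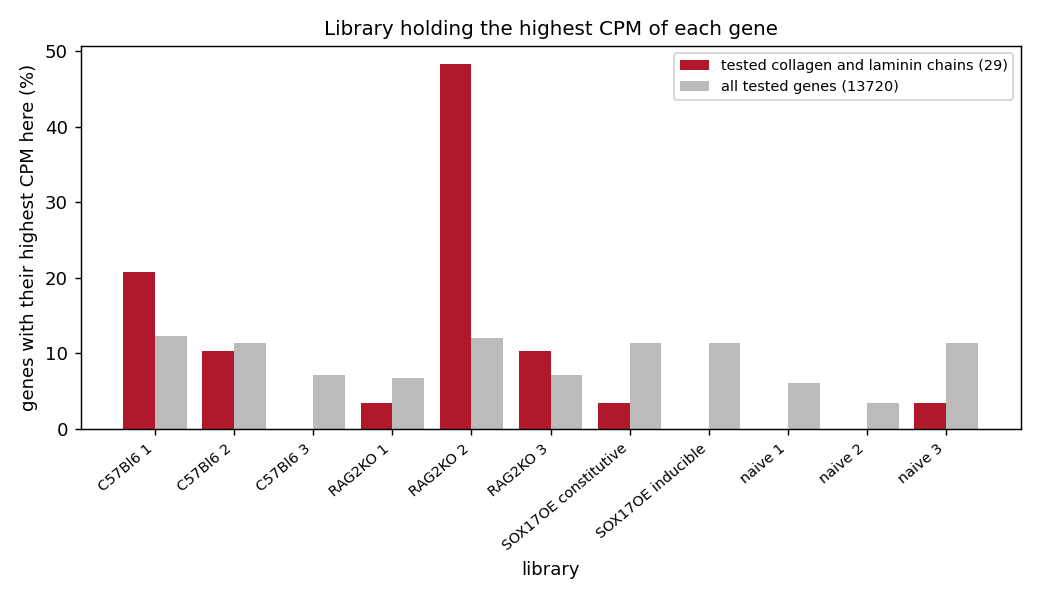
Share of genes (vertical axis, %) that had their highest CPM in each library, for the 29 tested collagen and laminin chains (red) and all 13720 tested genes (grey). The tallest bar is that of RAG2KO replicate 2 for the chains, at 48.3% against 12% for all genes.

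Collagen chains need enzymes and chaperones to be folded and secreted, and 26 of the 34 genes of a list of them were tested. In C57Bl6 against naive organoids 8 rose and 1 fell (median log2 fold change 0.63), in RAG2KO against naive 6 rose and 2 fell (median 0.33), in C57Bl6 against RAG2KO 5 rose and 0 fell (median 0.28), and in SOX17OE against naive 2 rose and 1 fell (median 0.10). Of the tested genes of the list, 34.6% were called in C57Bl6 against naive (15.3% of all tested genes), 30.8% in RAG2KO against naive (29.2%), 19.2% in C57Bl6 against RAG2KO (24%) and 11.5% in SOX17OE against naive (12.7%). The shares in RAG2KO against naive, in C57Bl6 against RAG2KO and in SOX17OE were near those of all genes. Serpinh1, the collagen chaperone HSP47, had 31.6, 19.5 and 1.97 CPM in the C57Bl6 and 1.75, 17.1 and 2.87 CPM in RAG2KO libraries, against 0 counts in the naive libraries. It was at least 108-fold higher in C57Bl6 (at least 65.8-fold without C57Bl6 replicate 1; edgeR adjusted p = 0.0165) and at least 44.3-fold higher in RAG2KO organoids (at least 14.2-fold without RAG2KO replicate 2; edgeR adjusted p = 0.0186). For Serpinh1 in C57Bl6 against naive, the adjusted p was 0.0741 with no filter, 0.174 with limma voom, 0.0535 without naive replicate 2 and 0.0533 without naive replicate 3, and it ran from 5.42e-08 to 0.174 over 20 alternatives. For Serpinh1 in RAG2KO against naive, the adjusted p was 0.0735 with no filter, 0.187 with limma voom, 0.0549 without naive replicate 2 and 0.0568 without naive replicate 3, and it ran from 1.74e-06 to 0.187 over 20 alternatives. Serpinh1 had 1 count in the constitutive and 9 counts in the inducible line.

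Bmp1, which trims procollagen ends, had 3.83, 8.30 and 3.59 CPM in the C57Bl6 and 4.31, 11.7 and 2.68 CPM in RAG2KO libraries, against 0.572, 0.657 and 0.763 CPM in the naive libraries. It rose in both (log2 fold change 2.96 ± 0.59 SE, edgeR adjusted p = 0.00894 in C57Bl6, and 3.21 ± 0.60 SE, adjusted p = 0.00443 in RAG2KO). Bmp1 had a log2 fold change of 2.38 without RAG2KO replicate 2 in RAG2KO against naive. Pcolce, which speeds that step, had 9.57, 41.6 and 5.92 CPM in RAG2KO libraries, against 1.86, 1.93 and 3.53 CPM in the naive libraries (log2 fold change 2.95 ± 0.69 SE, edgeR adjusted p = 0.0134). For Pcolce in RAG2KO against naive, the adjusted p was 0.0594 without naive replicate 2, and it ran from 1.57e-05 to 0.0594 over 20 alternatives. Pcolce had a log2 fold change of 1.66 without RAG2KO replicate 2 in RAG2KO against naive. Crtap, a part of the prolyl 3-hydroxylation complex, had 22.4, 26.7 and 22.5 CPM in the C57Bl6 libraries, against 13.95, 13.5 and 15.8 CPM in the RAG2KO libraries and 14.01, 14.8 and 15.3 CPM in the naive libraries. C57Bl6 libraries were above all others of these 3 groups (log2 fold change 0.73 ± 0.14 SE, edgeR adjusted p = 0.00758 against RAG2KO). The gene of the list with the highest CPM, a level not set per length, was P4hb, a subunit of prolyl 4-hydroxylase. It had 1119.6, 877 and 909 CPM in the C57Bl6 and 867, 802 and 964 CPM in RAG2KO libraries, against 825, 898 and 988 CPM in the naive libraries, and was not called in any comparison. Glt25d1, which adds galactose to collagen, had 169, 147 and 147 CPM in the C57Bl6 libraries, against 91.8, 98.2 and 94.2 CPM in the naive libraries (edgeR adjusted p = 0.00334). Fkbp14, a folding helper, had 1.42, 2.16 and 1.75 CPM in the RAG2KO libraries, 2.94 CPM in the constitutive and 1.57 CPM in the inducible line, against 0.715, 0.701 and 0.429 CPM in the naive libraries (edgeR adjusted p = 0.0217 in RAG2KO and 0.0296 in SOX17OE). Sec24d, a coat protein for procollagen export, had 21.6 CPM in the constitutive and 17.9 CPM in the inducible line, below all naive libraries (36.4, 38.7 and 50.8 CPM, edgeR adjusted p = 0.0457). The hydroxylase genes Leprel1 and Plod3 were higher in C57Bl6 than in RAG2KO organoids, with 48.8, 50.9 and 46.5 CPM of Plod3 in the C57Bl6 libraries, against 30.9, 38.3 and 33.5 CPM in the RAG2KO libraries (edgeR adjusted p = 0.0387 for Plod3 and 0.0194 for Leprel1). For Fkbp14 in RAG2KO against naive, the adjusted p was 0.0643 without RAG2KO replicate 2, 0.0632 without naive replicate 2 and 0.0801 without naive replicate 3, and it ran from 0.0120 to 0.0801 over 20 alternatives. For Fkbp14 in SOX17OE against naive, the adjusted p was 0.231 without the constitutive library, 0.0532 without naive replicate 1, 0.0844 without naive replicate 2 and 0.103 without naive replicate 3, and it ran from 0.0112 to 0.231 over 19 alternatives. For Sec24d in SOX17OE against naive, the adjusted p was 0.0548 with limma voom, 0.0643 without C57Bl6 replicate 3, 0.0580 without RAG2KO replicate 1, 0.0540 without RAG2KO replicate 2, 0.0591 without RAG2KO replicate 3, 0.164 without the constitutive library, 0.143 without the inducible library, 0.0630 without naive replicate 1, 0.0982 without naive replicate 2 and 0.130 without naive replicate 3, and it ran from 0.00867 to 0.164 over 19 alternatives. For Plod3 in C57Bl6 against RAG2KO, the adjusted p was 0.0504 with DESeq2 size factors, 0.0808 with upper quartile scaling, 0.0660 with a replicate block, 0.0759 without C57Bl6 replicate 1, 0.0838 without C57Bl6 replicate 2, 0.0766 without C57Bl6 replicate 3, 0.101 without RAG2KO replicate 1, 0.0982 without RAG2KO replicate 3, 0.0520 without naive replicate 1 and 0.0566 without naive replicate 2, and it ran from 0.0190 to 0.101 over 20 alternatives. For Leprel1 in C57Bl6 against RAG2KO, the adjusted p was 0.0571 with limma voom, 0.0515 without C57Bl6 replicate 2 and 0.0602 without RAG2KO replicate 3, and it ran from 0.00786 to 0.0602 over 20 alternatives. Leprel1 had a log2 fold change of 1.66 without C57Bl6 replicate 2 in C57Bl6 against RAG2KO. Glt25d1 was also higher in C57Bl6 than in RAG2KO organoids (log2 fold change 0.37 ± 0.11 SE, edgeR adjusted p = 0.0405), and missed the threshold in 11 of 20 alternatives. Bmp1 was higher in SOX17OE against naive (log2 fold change 2.22 ± 0.63 SE, edgeR adjusted p = 0.0459), and missed it in 8 of 19. Its log2 fold change there was 1.52 without the constitutive and 2.93 without the inducible library. Lox, Loxl1, Adamts2 and Tll1, enzymes of fibril assembly and trimming, had 0 to 2 counts over all libraries.

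Of 26 other basement membrane and matrix partners, 19 were tested. In C57Bl6 against naive organoids 6 rose and 0 fell (median log2 fold change 0.98), and in RAG2KO against naive 6 rose and 1 fell (median 1.01). In C57Bl6 against RAG2KO 2 rose and 1 fell (median -0.01), and in SOX17OE against naive 1 rose and 2 fell (median 0.11). Of the tested genes of the list, 31.6% were called in C57Bl6 against naive (15.3% of all tested genes), 36.8% in RAG2KO against naive (29.2%), 15.8% in C57Bl6 against RAG2KO (24%) and 15.8% in SOX17OE against naive (12.7%). The SOX17OE share was near that of all genes. The share in C57Bl6 against RAG2KO rested on few called genes and is not read as a result. Hspg2, which encodes the basement membrane proteoglycan perlecan, had 50.7, 71.9 and 56.4 CPM in the C57Bl6 and 6.200, 15.8 and 12.7 CPM in RAG2KO libraries, against 0.286, 0.0876 and 0.429 CPM in the naive libraries. The 3 groups did not overlap (log2 fold change 7.80 ± 0.50 SE, edgeR adjusted p = 2.53e-05 for C57Bl6 against naive, 5.44 ± 0.49 SE, adjusted p = 1.71e-04 for RAG2KO against naive, and 2.36 ± 0.35 SE, adjusted p = 0.00332 for C57Bl6 against RAG2KO). Without naive replicate 3 these values against naive were 8.43 and 6.07. The SOX17OE lines had 0.749 CPM (constitutive) and 0.233 CPM (inducible) of Hspg2. Nid1, the linker of laminin and type IV networks, did not pass the filter, with 0 to 5 counts per library.

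Fn1, which encodes fibronectin, had 70.4, 217 and 87.5 CPM in the C57Bl6 and 59.6, 258 and 55.3 CPM in RAG2KO libraries, against 3.50, 2.63 and 2.72 CPM in the naive libraries. All tumour-derived libraries were far above the naive ones (edgeR adjusted p = 0.00201 in C57Bl6 and 0.00158 in RAG2KO, with log2 fold changes of 5.42 ± 0.76 SE and 5.41 ± 0.76 SE). The value was 4.76 without C57Bl6 replicate 2 in the first and 4.30 without RAG2KO replicate 2 in the second. Npnt, an integrin ligand of basement membranes, had 170.1, 120.0 and 104 CPM in the C57Bl6 and 56.9, 167 and 67.7 CPM in RAG2KO libraries, against 15.6, 15.6 and 16.9 CPM in the naive libraries, with log2 fold changes of 3.03 ± 0.40 SE and 2.60 ± 0.39 SE (edgeR adjusted p = 0.00130 and 0.00200), the second 1.96 without RAG2KO replicate 2. Ntn4, a laminin-related netrin, had 2.62, 6.06 and 6.47 CPM in the C57Bl6, 3.23, 9.40 and 3.31 CPM in the RAG2KO, 2.65 CPM in the constitutive and 0.933 CPM in the inducible libraries, against 0.143, 0.0876 and 0.0953 CPM in the naive libraries. It was called in all 3 comparisons with naive organoids (edgeR adjusted p = 7.08e-04, 6.15e-04 and 0.0118). For Ntn4 in SOX17OE against naive, the adjusted p was 0.0736 with limma voom, 0.121 without the constitutive library and 0.0534 without naive replicate 2, and it ran from 2.23e-04 to 0.121 over 19 alternatives. Ntn4 had a log2 fold change of 3.07 without the constitutive library and 4.57 without the inducible library in SOX17OE against naive. In the RAG2KO comparison its log2 fold change was 5.57 ± 0.67 SE, and 4.87 without RAG2KO replicate 2. Agrn, which encodes agrin and had the highest CPM of the list, was at 214, 253 and 215 CPM in the C57Bl6 and 183, 337 and 230.1 CPM in RAG2KO libraries, against 102, 105 and 139 CPM in the naive libraries (edgeR adjusted p = 0.0136 and 0.00522). Efemp1, which encodes fibulin 3, had 13.2, 4.21 and 1.57 CPM in the C57Bl6 libraries, against 0.0674, 0 and 0 CPM in the RAG2KO libraries, where it had 1 count (edgeR adjusted p = 0.00343). Frem2, an epithelial basement membrane protein, was lower in C57Bl6 organoids, with 0.157, 0 and 0.0505 CPM in the C57Bl6 libraries, against 0.135, 1.99 and 1.25 CPM in the RAG2KO libraries, and the ranges overlapped (edgeR adjusted p = 0.0262). Fbln5 and Tinag fell in the SOX17OE lines (edgeR adjusted p = 0.0231 for Fbln5 and 0.0318 for Tinag), Tinag to 0.0576 CPM in the constitutive and 0.699 CPM in the inducible line, against 3.57, 3.29 and 4.24 CPM in the naive libraries. For Frem2 in C57Bl6 against RAG2KO, the adjusted p was 0.0732 with limma voom, 0.0598 without C57Bl6 replicate 2, 0.0831 without C57Bl6 replicate 3, 0.0700 without RAG2KO replicate 2 and 0.0578 without RAG2KO replicate 3, and it ran from 0.00677 to 0.0831 over 18 alternatives. Frem2 had a log2 fold change of -5.09 without C57Bl6 replicate 1 and -3.19 without RAG2KO replicate 2 in C57Bl6 against RAG2KO. For Fbln5 in SOX17OE against naive, the adjusted p was 0.0649 with limma voom, 0.699 without the constitutive library, 0.0601 without naive replicate 2 and 0.0639 without naive replicate 3, and it ran from 0.0106 to 0.699 over 19 alternatives. Fbln5 had a log2 fold change of -0.61 without the constitutive library and -7.86 without the inducible library in SOX17OE against naive. For Tinag in SOX17OE against naive, the adjusted p was 0.0540 with limma voom, 0.303 without the constitutive library, 0.0534 without naive replicate 1, 0.0729 without naive replicate 2 and 0.0762 without naive replicate 3, and it ran from 0.00188 to 0.303 over 19 alternatives. Tinag had a log2 fold change of -2.39 without the constitutive library and -5.84 without the inducible library in SOX17OE against naive.

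Of 25 receptors and linkers for these chains, 20 were tested. In C57Bl6 against naive organoids 5 rose and 1 fell (median log2 fold change 0.50), and in RAG2KO against naive 5 rose and 4 fell (median 0.40). In C57Bl6 against RAG2KO 3 rose and 1 fell (median 0.32), and in SOX17OE against naive 0 rose and 1 fell (median -0.48). Of the tested genes of the list, 30% were called in C57Bl6 against naive (15.3% of all tested genes), 45% in RAG2KO against naive (29.2%), 20% in C57Bl6 against RAG2KO (24%) and 5% in SOX17OE against naive (12.7%). The share in C57Bl6 against RAG2KO was near that of all genes, and the SOX17OE share rested on 1 called gene. Bcam, a receptor for the Lama5 chain, had 489, 451 and 459 CPM in the C57Bl6 and 342, 231 and 309 CPM in RAG2KO libraries, against 146, 161 and 168 CPM in the naive libraries. The groups were in that order with no overlap (edgeR adjusted p = 2.08e-04 for C57Bl6 and 0.00272 for RAG2KO against naive, and 0.0123 for C57Bl6 against RAG2KO). Dag1, which encodes the laminin receptor dystroglycan, had 119.8, 98.8 and 129.5 CPM in the C57Bl6, against 49.9, 53.4 and 58.9 CPM in the RAG2KO libraries (log2 fold change 1.10 ± 0.16 SE, edgeR adjusted p = 0.00307). Itgb1, the shared integrin beta chain and the gene of the list with the highest CPM, had 732, 603 and 533 CPM in the C57Bl6 and 559, 999.7 and 515 CPM in RAG2KO libraries, against 378, 399 and 417 CPM in the naive libraries (edgeR adjusted p = 0.0908 in C57Bl6 and 0.0297 in RAG2KO).

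Itgb8, an integrin beta chain, had 1.52, 0.281 and 0.505 CPM in the C57Bl6 and 0.539, 0.584 and 0.187 CPM in RAG2KO libraries, against 0 counts in the naive libraries, at least 4.72-fold higher in C57Bl6 and at least 2.68-fold higher in RAG2KO organoids (edgeR adjusted p = 0.0154 and 0.0193). Without C57Bl6 replicate 1 it was at least 2.41-fold higher in C57Bl6 organoids. Cd44, Sdc1 and Cd151, which encode cell surface receptors and a partner of laminin integrins, were called in 1 tumour group or both (edgeR adjusted p = 0.0244 for Cd44 and 0.0271 for Sdc1 in C57Bl6, 0.0123 for Sdc1 and 0.0167 for Cd151 in RAG2KO organoids, all higher). For Itgb8 in C57Bl6 against naive, the adjusted p was 0.0517 without naive replicate 2, and it ran from 0.00301 to 0.0517 over 16 alternatives. For Cd44 in C57Bl6 against naive, the adjusted p was 0.0508 with a replicate block, 0.0620 without C57Bl6 replicate 1, 0.0859 without naive replicate 1 and 0.0997 without naive replicate 2, and it ran from 0.00163 to 0.0997 over 20 alternatives. For Cd151 in RAG2KO against naive, the adjusted p was 0.0543 without RAG2KO replicate 2, 0.0505 without naive replicate 1 and 0.0611 without naive replicate 2, and it ran from 0.00150 to 0.0611 over 20 alternatives. Itga6, the alpha chain of the main epithelial laminin integrins, had 359, 191 and 208 CPM in the C57Bl6 and 115, 184 and 192 CPM in RAG2KO libraries, against 333, 341 and 455 CPM in the naive libraries. It fell in RAG2KO organoids, with no overlap (log2 fold change -1.20 ± 0.27 SE, edgeR adjusted p = 0.0109), and was not called in C57Bl6 organoids (edgeR adjusted p = 0.186). Itgb4, its partner in hemidesmosomes, had 288, 199 and 199.97 CPM in the C57Bl6 and 125, 218 and 192 CPM in RAG2KO libraries, against 165, 179 and 338 CPM in the naive libraries, and was not called in any of the 4 comparisons. Itga7, a laminin integrin chain known from muscle, had 2.88, 1.18 and 2.02 CPM in the C57Bl6 and 2.49, 10.6 and 18.6 CPM in RAG2KO libraries, against 36.5, 36.2 and 89.6 CPM in the naive libraries. It fell in both (edgeR adjusted p = 0.00306 in C57Bl6 and 0.0235 in RAG2KO organoids), and the alternatives were not run for RAG2KO against naive. Itga7 was also lower in C57Bl6 than in RAG2KO organoids (log2 fold change -2.38 ± 0.69 SE, edgeR adjusted p = 0.0356). That call missed the threshold in 9 of 20 alternatives, where the adjusted p ran from 0.00914 to 0.144. Plec, which encodes the hemidesmosome linker plectin, had 79.9 CPM in the constitutive and 61.3 CPM in the inducible line, against 147, 149.8 and 263 CPM in the naive libraries (log2 fold change -1.41 ± 0.31 SE, edgeR adjusted p = 0.0215). Plec was higher in C57Bl6 than in RAG2KO organoids (log2 fold change 0.89 ± 0.27 SE, edgeR adjusted p = 0.0383). That call missed the threshold in 6 of 20 alternatives, where the adjusted p ran from 0.00988 to 0.109. For Plec in SOX17OE against naive, the adjusted p was 0.110 without the constitutive library and 0.0788 without the inducible library, and it ran from 1.62e-04 to 0.110 over 19 alternatives.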

How the data were processed

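RNA was extracted with the PureLink kit and sequenced from poly(A)-selected, directional libraries, per the labels. The authors deposited expected counts per gene for 11 libraries, and the submitters' processing notes name Bowtie, RSEM and the mouse build mm9. Expected counts were rounded to whole numbers. Genes were filtered with filterByExpr, scaled by TMM and tested with edgeR's robust quasi-likelihood test (edgeR 4.0.16, R 4.3.3) in 1 model of 5 groups, with Benjamini-Hochberg adjustment over the 13720 genes tested, and called at an adjusted p under 0.05. CPM are rounded counts scaled to the TMM-adjusted library total. SEs were derived from each log2 fold change and its F statistic. Common biological variation was 25.3%. Library totals were 14109182 to 22154456, and intervals and floors cover counting error only.

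Members named were those called in at least 1 comparison or with a mean of 5 CPM or more in a group, and list genes named were the first called by adjusted p in each comparison, the one with the highest mean CPM, and 5 set genes (Serpinh1, Nid1, Hspg2, Itga6 and Itgb4). The values of 1 member are not reported here, though counts and sums over the members include it. Members, lists and tests were chosen with earlier results of these data known. Of 142 list genes, 141 had a row. In 25 rows the gene name reads as a date. Gene lengths and overlaps came from GENCODE M21 (GRCm38), another build than the authors', and promoter windows from RefSeq GRCm38.p6. Alternatives were run with limma 3.58.1 and DESeq2 1.42.0, and the test was checked on simulated data. They were not run for Itga7 and Itgb8 in RAG2KO against naive or for Sdc1 in C57Bl6 against naive. They were also not run for Agrn and Itgb1 in either tumour group against naive. The alternative of leaving out each library from bounds and counting ratios was chosen after seeing the data. Figures were drawn with matplotlib 3.10.9.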

Additional observations from a re-analysis of the deposited data

Results flagged for a closer look

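For 6 chains the change relative to naive organoids differed between the C57Bl6 and RAG2KO tumour groups by edgeR's test of the difference itself, which is the direct contrast of the tumour groups. The log2 difference, C57Bl6 minus RAG2KO, was 1.76 for Col4a1, 1.79 for Col4a2, 1.07 for Lamc1 and 0.84 for Col18a1, all higher in C57Bl6 organoids. It was -2.33 for Col16a1 and -2.67 for Col9a1, both lower in C57Bl6 organoids. In each of the 6, every library of one tumour group was above every library of the other. The 6 were chosen by the test on these same values, so this separation adds no support. The share of all genes separated in this way was not counted. Of the chains tested, 20.7% were called here, against 24% of all tested genes.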

How the results depend on the processing

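Of 25 member calls over the 4 comparisons, 9 passed the threshold under every alternative run (Col14a1, Col18a1 and Lamb2 in C57Bl6 against naive, Col16a1, Col27a1 and Lamb2 in RAG2KO against naive, and Col4a1, Col4a2 and Lamc1 in C57Bl6 against RAG2KO), 16 missed it under at least 1, and 0 changed sign. Of 51 other results for named members, not called, 13 passed under at least 1. Among the 9 calls, Col27a1 in RAG2KO against naive had a result in 19 alternatives and each of the others in 20. With limma voom the member counts were 4 for C57Bl6 (7 with edgeR), 7 for RAG2KO (11) and 0 for SOX17OE (1), and for SOX17OE they were 4 with DESeq2 and 5 when only the groups compared were fitted. Leaving out 1 library gave 3 to 10 calls for C57Bl6, 4 to 12 for RAG2KO, 3 to 7 for C57Bl6 against RAG2KO and 0 to 2 for SOX17OE. A filter of 1 CPM in 3 libraries left 17 measurable members in place of 29. Over all genes, SOX17OE had 1741 calls, 2711 with DESeq2 and 2630 with only the groups compared. They were 85 without the constitutive library, 450 without naive replicate 2 and 571 without naive replicate 3. The all-gene count for C57Bl6 was 2106, and 1096 and 1030 without naive replicates 1 and 2. That for RAG2KO was 4010, 2466 without RAG2KO replicate 2 and 2041 without naive replicate 2. That for C57Bl6 against RAG2KO was 3295, 1857 without C57Bl6 replicate 3 and 2018 without RAG2KO replicate 3.

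Signs that turned belonged to results not called. In C57Bl6 against naive, Lamb1 was -0.0884 with voom and -0.12 with the replicate block, Col16a1 -0.0139 with that block, and Itgb4 -0.0012 with DESeq2 size factors, -0.0324 with upper quartile scaling and -0.0010 with DESeq2. In RAG2KO against naive, Lamb1 was -0.0628 with voom. In C57Bl6 against RAG2KO, Lamb2 was 0.0090 with library totals and Col8a1 0.10 with voom. In SOX17OE, Lama5 was -0.0294 with library totals. With 1 library left out, the C57Bl6 values ran from -0.64 to 0.56 for Col16a1, -1.14 to 1.36 for Col3a1, -0.57 to 0.38 for Col9a1, -0.41 to 0.52 for Lamb1 and -0.20 to 0.41 for Itgb4, and the RAG2KO values from -3.44 to 6.01 for Col3a1, -1.21 to 1.45 for Lamb1 and -0.55 to 0.0510 for Itgb4. Those of C57Bl6 against RAG2KO ran from -6.12 to 3.76 for Col3a1, -0.67 to 1.66 for Col4a5, -2.44 to 0.25 for Col7a1, -1.21 to 1.81 for Col8a1, -0.91 to 0.62 for Lama3, -0.0512 to 0.33 for Lama5, -1.35 to 1.37 for Lamb1 and -0.27 to 0.16 for Lamb2. Those of SOX17OE ran from -1.26 to 0.32 for Col14a1, -3.05 to 0 for Col27a1, -0.91 to 1.32 for Lama3, -0.21 to 0.50 for Lama5 and -0.16 to 1.496 for Hspg2. The causes were not tested.

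Same-numbered libraries deviated with correlations of -0.19 to 0.18, and differently numbered ones with correlations of -0.25 to 0.17. With 3 libraries per group, this check cannot tell whether the numbers pair the libraries. With the replicate number as a block, 21 members were tested, fewer than in the main model. Of these 21, 6 were called for C57Bl6, 10 for RAG2KO and 6 for C57Bl6 against RAG2KO. Over all 12733 genes tested with the block, 1737, 3453 and 2688 were called, in the same order. As the block tested fewer members, its counts cannot be set directly beside those of the main model. The block was not fitted for the SOX17OE lines, which have 1 library each. A count of 3 is 0.131 to 0.214 CPM by library, and depth limits what can be seen near that level.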
